A study of Mus musculus with 96 samples.

Results

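The control mice of a study of striatal astrocytes are described here: 48 of the 96 libraries and 24 of the 48 mice in the series, chosen by label as the untreated arm of each experiment. Every mouse carried a RiboTag AAV in the striatum for 3 weeks, which expresses Rpl22-HA, a ribosomal protein with a hemagglutinin tag, in astrocytes. From each adult mouse came an IP library, made from RNA precipitated with the tag, and an input library, made from the cleared lysate of the same tissue. There were 6 control groups of 4 mice. The QA group was C57BL/6 with vehicle microinjected into the striatum, and the LPS group was C57BL/6 with vehicle injected i.p. The Kir4.1 group was Kir4.1flox/flox with an AAV5 that drives TdTomato from the astrocyte promoter GfaABC1D. The IP3R2 group was Itpr2+/+, the wild-type littermates of knockouts. The rM3Ds and hM3Dq groups were C57BL/6 given vehicle i.p. while already expressing that designer receptor in striatal astrocytes, so they are controls for the ligand and not for the receptor. The rM3D vector used GfaABC1D per the labels, and the promoter of the hM3Dq vector is not given there. Each experiment has a library code of its own in the labels, so control group, genotype, vector and library code cannot be told apart. The labels name the cell type striatal astrocytes for both fractions, but the input is whole lysate and held the markers of neurons, oligodendrocytes, microglia and vessels given below.

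RiboTag profiling reads the RNA that is bound to ribosomes of a chosen cell type. Tagged Rpl22 is built into ribosomes, an antibody pulls these down, and the transcripts being translated on them come along. Astrocytes of the striatum clear glutamate, GABA and potassium, wrap vessels with endfeet, store glycogen and make lipoproteins for their neighbours. Most striatal neurons are medium spiny projection neurons, with a small number of cholinergic and GABAergic interneurons among them. Since these are bulk samples, fewer cells of a type and less RNA per cell cannot be told apart.

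Gene levels were deposited as FPKM, a read count scaled by transcript length and library size. The depth recovered from these values was at least 43826591 and at most 74935209 reads for an IP library, and at least 14738821 and at most 48319956 reads for an input library. Of 24060 gene entries, 15566 reached 0.5 FPKM in at least 4 of the 48 libraries and were tested. The question of the main comparison was which transcripts the pull-down holds at a higher or lower level than the tissue it came from. Ratios are log2 of IP over input on TMM-scaled FPKM plus 0.1, with the mouse as a block, and a gene was called at a limma adjusted p (Benjamini-Hochberg over all tested genes) under 0.05. The labels give each pair of IP and input libraries an animal code of its own, so the replicates are mice.

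In the 24 mice, 6896 genes were higher in IP, 44.3% of those tested, and 6889 were lower, also 44.3%. The median ratio over all tested genes was -0.01 on the log2 scale. Without scaling beyond the deposited FPKM, the median moved to -0.24 and the split became 4900 higher and 9051 lower. At least 4-fold differences were fewer, with 460 genes higher (2.96% of those tested) and 3.69% lower, and at least 2-fold differences had 1975 higher (12.7%) and 2013 lower (12.9%). There were 4635 genes higher in 24 of 24 mice (29.8%) and 3903 lower in 24 of 24 (25.1%). With 88.6% of genes called in either direction, the size of a ratio says more than its call, and the list medians below are to be read against the median of -0.01 over all genes. A gene that reached the filter in 1 fraction only was chosen by its level in that fraction, which tilts its ratio. For lists that hold such genes the count over all mice is therefore given over the members that passed in both fractions. List medians by group or by mouse use all tested members. The fold changes understate low genes, because of the pseudocount.

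**Figure D1:**
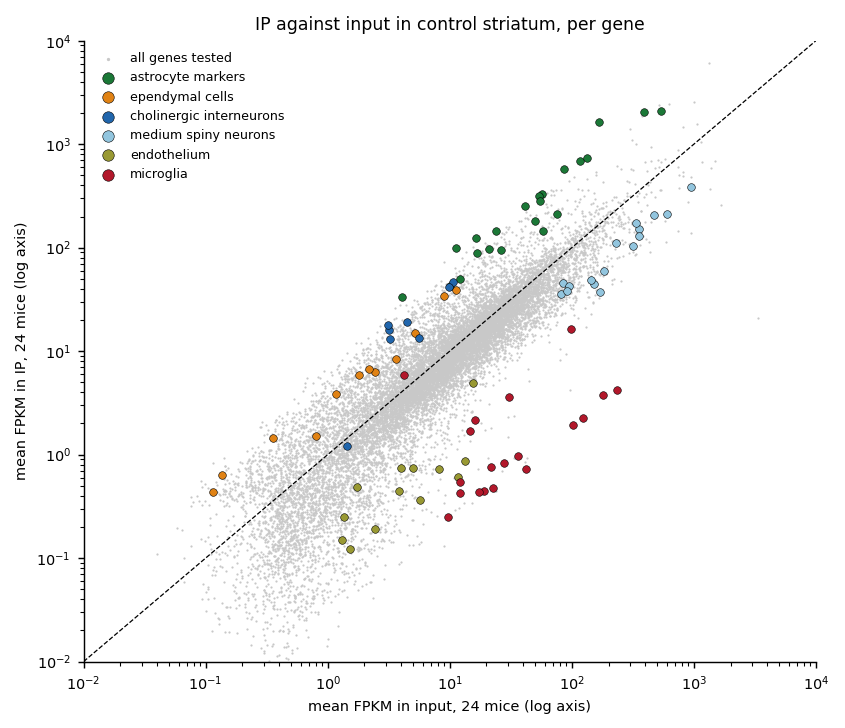
Mean FPKM in IP (vertical, log axis) against mean FPKM in input (horizontal, log axis) for each tested gene over the 24 control mice; the dashed line marks equal values and colours mark marker lists. Astrocyte, ependymal and most cholinergic interneuron markers lie above the line, medium spiny neuron and endothelial markers lie below it, and 18 of 19 microglial markers lie far below it.

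Slc1a2, the glutamate transporter GLT-1, had 1088, 1589 and 2290 FPKM in IP as the lowest, median and highest of 24 mice, against 130, 172 and 213 FPKM in input. No IP value came near an input value. The log2 ratio of Slc1a2 was 3.49 ± 0.08 (SE), an 11.2-fold difference and the largest among genes of at least 10 FPKM (limma adjusted p = 4.3e-25). Next came Atp1b2, a subunit of the sodium pump, at 3.43, Kcnj10, the potassium channel Kir4.1, at 3.25, and Sox9, the glial transcription factor, at 3.25. Sox9 had 21.0, 31.1 and 56.0 FPKM in IP as the lowest, median and highest values, against 2.27, 3.98 and 5.80 FPKM in input. The other genes among the 15 highest were Nos1, Rorb, Gbp5, Gfap, Mcc, Arhgef26, Pcdhgc3, Igfbp5, Slc14a1, Prex2 and Aqp4, with ratios between 2.85 and 3.22. Pcdhgc3 shares exons with the other gamma protocadherins, so its value is uncertain.

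By level, the IP libraries were led by Apoe, the main lipoprotein of the brain. Apoe had 4666, 5621 and 8910 FPKM in IP as the lowest, median and highest of 24 mice, against 1020, 1377 and 1587 FPKM in input. After it came Cst3, a secreted protease inhibitor, at 2569 ± 758 FPKM (SD, n = 24), Cpe, a peptide-processing enzyme, at 2420 ± 461 FPKM, and Sparcl1, a synapse-promoting matrix protein, at 2393 ± 404 FPKM. Glul (glutamine synthetase), Aldoc (a glycolytic enzyme), Clu, Slc1a2, Ckb and B2m completed the first 10, all higher in IP in 24 of 24 mice. These 10 genes held 7.57% ± 1.28 of the summed FPKM of an IP library and 2.02% ± 0.162 of an input library (SD, n = 24 each). The gain of Ckb was small, at a log2 ratio of 0.77, so its place came from a high level in the tissue.

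All 22 astrocyte markers tested were higher in IP, with a median log2 ratio of 2.66 and a range of 1.57 to 3.49. The smallest ratios belonged to Slc4a4, a bicarbonate cotransporter (1.57), and S100b, a calcium-binding protein (1.71). Summed over the list, marker FPKM took 3.22% ± 0.516 of an IP library and 0.582% ± 0.0347 of an input library (SD, n = 24 each). The 20 transcription factors of the astrocyte lineage that passed the filter in both fractions were also higher, with a median of 1.82, and 2 others passed in IP only. Besides Sox9 and Rorb (3.08), these included Nfia, which drives astrocyte formation (2.49).

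The genes of transmitter and ion handling were mostly higher in IP. Of 16 genes for glutamate and GABA handling, 15 were higher and 0 lower, with a median log2 ratio of 2.10. Slc1a3, the glutamate transporter GLAST, reached 2.72, Slc38a3, a glutamine transporter, 2.5, and Maob, which breaks down monoamines, 2.49. Got2, a mitochondrial aminotransferase, stood at -0.02 and was not called. Of 15 genes for potassium and other ions, 12 were higher and 1 lower, with a median of 1.08. Slc12a4, a potassium-chloride cotransporter, reached 2.38. Slc24a4, a sodium-calcium exchanger, was the gene that fell, by 0.58. Of 14 endfoot and gap junction genes, 12 were higher and 1 lower, with a median of 1.84. Aqp4, the water channel of endfeet, had a ratio of 2.85, Gja1 (connexin 43) 2.81, Mlc1 2.59 and Gjb6 (connexin 30) 2.27. Utrn, a cytoskeletal linker, was the member that fell, by 0.15.

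Metabolic and secretory genes followed. Of 20 tested genes for glycogen and glucose use, 18 were higher and 2 lower, with a median log2 ratio of 1.13. Aldoc and Pdk4, which limits entry of pyruvate into mitochondria, both reached 2.60, and the glycogen phosphorylases Pygm and Pygb reached 2.41 and 2.38. Hk2, a hexokinase, fell by 1.16 and Slc16a3, a lactate exporter, by 0.51. Of 22 lipid genes, 21 were higher, with a median of 1.87. Acsbg1, an acyl-CoA synthetase, reached 2.75, Pla2g7 2.66, Clu 2.51 and Apoe 2.44, while the cholesterol exporter Abcg1 fell by 0.16. Of 19 synapse-forming and matrix genes, 17 were higher and 1 lower, with a median of 1.77. The glypicans Gpc4 and Gpc5 reached 2.91 and 2.54, Chrdl1, a synapse-maturing factor, 2.90 and Thbs4 2.84. Another thrombospondin, Thbs3, fell by 0.63.

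Receptors and calcium genes were more divided. Of 20 receptors listed for astrocytes, 16 were higher and 4 lower, with a median log2 ratio of 1.48. The lower ones were the metabotropic glutamate receptor Grm5 (-0.69), the purine receptor P2ry1 (-0.50), the adrenergic receptor Adrb1 (-0.29) and the adenosine receptor Adora1 (-0.19). Gpr37l1 reached 2.53, the sphingosine receptor S1pr1 2.48, the endothelin receptor Ednrb 2.42 and the Wnt receptor Fzd2 2.35. Of 16 genes for calcium stores and Gq signalling, 8 were higher and 8 lower, with a median of 0.09 that turned to -0.16 without scaling. Of the 15 that passed the filter in both fractions, 8 were higher and 7 lower, with a median of 0.26. The other 1 passed in input only. Plcd4, a phospholipase C, had a ratio of 2.54, Itpr2, the IP3 receptor of astrocyte stores, 2.08 and Plcb4 1.85, whereas the ryanodine receptor Ryr1 fell by 1.44. Of 12 phagocytosis genes, 11 were higher, with a median of 1.53. Megf10 reached 2.28, Axl 2.06, Mfge8 2.04 and Mertk 1.86, while Tyro3, a relative of Axl and Mertk, fell by 0.77.

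Genes known from reactive astrocytes were higher in IP in these control mice. Of 14 that passed the filter in both fractions, 13 were higher and 0 lower, with a median log2 ratio of 2.5. Gfap, the filament protein of astrocytes, reached 2.98, Timp1, a metalloprotease inhibitor, 2.78, Gbp2, an interferon-induced GTPase, 2.63 and the hyaluronan receptor Cd44 2.57. A high ratio is not a high level: Timp1 averaged 7.41 ± 4.48 FPKM in IP and 1.24 ± 0.971 FPKM in input, and Gfap averaged 580 ± 201 FPKM in IP and 86.6 ± 31.5 FPKM in input (SD, n = 24 each). Every mouse had received an AAV into the striatum, and a control without a vector was not analysed here. Of 13 immediate early genes, 3 were higher and 9 lower, with a median of -0.61. Jun and Fos were higher, at 1.23 and 0.94, and Btg2 stood at 0.11, which turned to -0.12 without scaling. Npas4 and Arc, which mark neuronal activity, fell by 1.37 and 0.87.

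Markers of microglia, the macrophages of the brain, were lower in IP. Of 18 microglial markers that passed the filter in both fractions, 17 were lower in IP and 1 higher, with a median log2 ratio of -4.79, and 1 other marker passed in input only. C1qc, a chain of the complement starter C1q, had 0.849, 1.88 and 2.90 FPKM in IP as the lowest, median and highest of 24 mice, against 40.5, 101 and 151 FPKM in input. The 2 fractions did not overlap. Ctss, a lysosomal protease, fell by 5.66 ± 0.14 (SE, limma adjusted p = 3.5e-24), a 50.6-fold difference. C1qb fell by 5.51. Tyrobp, an adaptor of microglial receptors, fell by 5.49. C1qa, Ly86, Selplg, Ccl12, Tmem119, Fcgr3 and Fcer1g were among the 15 genes with the largest losses, and each is known from microglia or other myeloid cells. Sall1, a transcription factor that is also found in other brain cells, was the microglial marker that was higher, at 5.83 ± 1.07 FPKM in IP and 4.25 ± 0.646 FPKM in input (SD, n = 24 each).

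The 8 endothelial markers that passed the filter in both fractions were lower in IP, with a median log2 ratio of -2.56, and 5 others passed in input only. Ly6c1 fell by 3.93, Cldn5, a tight junction protein, by 3.62 and the transporter Slco1a4 by 3.18. Of 7 mural cell markers that passed in both, 5 were lower and 2 higher, with a median of -0.94. Kcnj8, Vtn and Rgs5, all pericyte genes, fell by 1.99, 1.90 and 1.63, while Pdgfrb and the muscle actin Acta2 had ratios of 1.35 and 0.72. Of 7 tested fibroblast markers, 5 passed in input only, so the list gives no count. Dcn, a matrix proteoglycan, averaged 0.133 FPKM in IP and 4.66 FPKM in input. Col1a2 stood at 0.19, and at -0.04 and not called without scaling. Of 12 leukocyte markers, 7 were tested and 6 of these passed in input only, so the list gives no count either. The lysozyme Lyz2, which passed in both, averaged 0.448 FPKM in IP and 23.7 FPKM in input. The leukocyte phosphatase Ptprc averaged 0.212 FPKM in IP and 3.60 FPKM in input. Of 7 red blood cell genes, the heme enzyme Alas2 alone was tested, through input, with 0.126 FPKM in IP and 1.6 FPKM in input. With IP levels this near the pseudocount of 0.1, the size of a fitted fold depends on it. Igj, the joining chain of antibodies, fell by 5.16.

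Neuronal genes divided by cell type. All 16 markers shared by medium spiny neurons were lower in IP, with a median log2 ratio of -1.07, a smaller loss than that of microglia or endothelium. Arpp21, a cAMP-regulated phosphoprotein, had 24.8, 35.1 and 54.5 FPKM in IP as the lowest, median and highest of 24 mice, against 145, 174 and 202 FPKM in input, and fell by 2.00 ± 0.06 (SE, limma adjusted p = 1.36e-22). Gng7, Ptpn5 and Rasd2, all signalling proteins of these cells, fell by 1.56, 1.42 and 1.40. Summed marker FPKM of medium spiny neurons took 0.574% ± 0.14 of an IP library and 1.37% ± 0.0825 of an input library (SD, n = 24 each). The same sum for microglial markers was 0.0151% ± 0.00227 in IP and 0.303% ± 0.0684 in input. Of 8 markers of the D1 type, 6 were lower and 2 higher, with a median of -0.86 and Tac1 at -1.41, Ebf1 at -1.27, the dopamine receptor Drd1a at -1.13 and Pdyn at -0.96. Eya1 was higher, at 0.35, and Sfxn1 stood at 0.09, which turned to -0.15 without scaling. Of 7 markers of the D2 type, 6 were lower and 1 higher, with a median of -1.11 and the receptors Gpr52 at -1.75, Adora2a at -1.65, Gpr6 at -1.18 and Drd2 at -1.11. Ptprm, a phosphatase, was higher at 0.42.

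Interneuron markers went the other way, and were higher in IP than in input. Of 8 cholinergic markers, 7 were higher and 0 lower, with a median log2 ratio of 2.32. Chat, which makes acetylcholine, had 31.8, 45.0 and 64.6 FPKM in IP as the lowest, median and highest of 24 mice, against 8.41, 10.5 and 12.9 FPKM in input, with no overlap. Its ratio of 2.37 ± 0.05 (SE, limma adjusted p = 6.3e-26) was close to the 2.44 of Apoe. Tacr1, the receptor for substance P, reached 2.71 and the vesicular transporter Slc17a8 2.55. The transcription factor Gbx1 was the member not called, at -0.16. Of 13 GABAergic interneuron markers, 10 were higher and 1 lower, with a median of 1.48. Nos1, neuronal nitric oxide synthase, had 51.8, 75.2 and 101 FPKM in IP as the lowest, median and highest values, against 7.94, 9.01 and 11.3 FPKM in input, a ratio of 3.22 that ranks among the astrocyte markers. The peptides of the same interneurons were high too, with Sst at 2.02 and Npy at 1.94, and Chodl, a marker of long-range cells among them, at 1.90. Pvalb and Calb2, markers of other interneuron types, stood at -0.18 and 0.08 and were not called, and Cck fell by 0.64. Which cells carried the tagged ribosomes of interneuron transcripts was not tested.

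Markers of neurons as a whole were split. Of 17, 9 were higher and 8 lower, with a median log2 ratio of 0.09, and -0.15 without scaling. Dlg4, a scaffold of synapses, and the nuclear protein Rbfox3 fell by 1.31 and 1.02, while Elavl4 was higher at 0.85 and Nefh, a neurofilament, at 0.63. Of 7 markers of cortical excitatory neurons, 1 was higher, the transcription factor Fezf2 at 1.54, and 1 was lower, Neurod2 by 0.34, with a median of -0.09. The median of these cortical markers in a mouse ran from -1.05 to 1.73 over the 24 mice, with summed levels of only 24.0 FPKM in IP and 24.3 FPKM in input on average.

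Ependymal markers were higher in IP. Ependymal cells line the ventricles beside the striatum and carry motile cilia. The 9 markers that passed the filter in both fractions were higher in IP, with a median log2 ratio of 1.78, and 3 others passed in IP only. Foxj1, the master factor of motile cilia, had 15.8, 31.6 and 65.8 FPKM in IP as the lowest, median and highest of 24 mice, against 5.89, 8.41 and 13.3 FPKM in input, a ratio of 2.10 ± 0.06 (SE, limma adjusted p = 2.25e-23). Rarres2 (chemerin) reached 2.03 and Rsph4a, a radial spoke protein, 1.87. Of 5 tested choroid plexus markers, 2 were higher and 3 lower. Only 2 passed in both fractions, and both were lower, while 2 others passed in IP only. Ttr, which passed in input only, averaged 0.159 ± 0.215 FPKM in IP and 0.81 ± 1.01 FPKM in input (SD, n = 24 each), a low level in both fractions.

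Since the ependymal genes moved together, their promoters were read for the X-box, the site bound by RFX factors, which act with Foxj1 on cilia genes. RefSeq windows (GRCm38.p6) from 250 bases before to 50 after a start were found for 8 of the 12 genes. The full X-box palindrome, read on both strands, was in 0 of these 8 genes and in 0.111% of the 27025 genes with a window. A looser form was written after these windows had been seen, with GTTGCC and AAC 3 to 6 letters apart, both strands, which includes the palindrome. It was in 4 of the 8 ependymal genes and in 1.49% of all genes. The ependymal share is partly set by that choice of form, so setting it beside other shares is no test. The looser form was in 0 of 18 astrocyte marker genes, 0 of 17 astrocyte transcription factor genes and 0 of 13 microglial genes with a window. The nuclear factor I palindrome was in 0.0444% of all genes and in 0 of each of these lists. A match is a description of letters and shows no binding. The 4 windows are printed 5′ to 3′ on the gene's strand, with the looser match in capitals, which for Pifo and Hydin lies on the other strand.
Pifo (chr3:106001448-106001747, minus strand): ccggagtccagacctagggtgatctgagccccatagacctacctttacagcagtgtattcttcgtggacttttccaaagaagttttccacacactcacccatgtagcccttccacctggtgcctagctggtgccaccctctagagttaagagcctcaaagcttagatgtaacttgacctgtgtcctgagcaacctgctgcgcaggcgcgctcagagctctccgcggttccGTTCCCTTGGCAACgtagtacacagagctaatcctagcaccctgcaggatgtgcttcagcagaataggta
Hydin (chr8:110266727-110267026, plus strand): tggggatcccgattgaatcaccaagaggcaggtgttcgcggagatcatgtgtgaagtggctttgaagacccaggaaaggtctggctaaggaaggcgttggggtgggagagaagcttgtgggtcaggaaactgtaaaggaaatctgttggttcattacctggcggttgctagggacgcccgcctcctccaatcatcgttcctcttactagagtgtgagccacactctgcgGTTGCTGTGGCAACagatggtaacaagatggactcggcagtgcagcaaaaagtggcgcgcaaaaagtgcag
Dynlrb2 (chr8:116504765-116505064, plus strand): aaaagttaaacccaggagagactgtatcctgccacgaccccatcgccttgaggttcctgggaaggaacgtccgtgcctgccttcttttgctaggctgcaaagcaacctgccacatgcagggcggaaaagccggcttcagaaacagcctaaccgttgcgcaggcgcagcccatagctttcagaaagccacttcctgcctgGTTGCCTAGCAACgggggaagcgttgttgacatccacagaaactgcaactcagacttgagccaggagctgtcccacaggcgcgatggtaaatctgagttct
Ccdc153 (chr9:44240427-44240726, plus strand): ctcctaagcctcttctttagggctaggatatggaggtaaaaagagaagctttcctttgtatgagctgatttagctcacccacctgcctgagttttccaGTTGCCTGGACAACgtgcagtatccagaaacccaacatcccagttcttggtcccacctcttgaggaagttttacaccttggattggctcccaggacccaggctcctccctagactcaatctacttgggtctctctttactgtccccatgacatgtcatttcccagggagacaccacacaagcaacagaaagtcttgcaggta

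The matches lie 20 bases before the start of Pifo, 21 before Hydin, 51 before Dynlrb2 and 152 before Ccdc153. The genes differed widely in level. Ccdc153 averaged 14.95 ± 6.39 FPKM in IP and 5.20 ± 1.69 FPKM in input, and Dynlrb2, a dynein light chain, averaged 6.27 ± 2.12 FPKM in IP and 2.43 ± 0.899 FPKM in input (SD, n = 24 each). Pifo and Hydin, a protein of the ciliary axoneme, were under 2 FPKM in both fractions on average. Ccdc153 and Dynlrb2 were higher in IP in 24 of 24 mice.

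Oligodendrocyte genes were near balance and varied between mice. Of 14 markers of mature cells, 6 were higher and 3 lower, with a median log2 ratio of 0.05, and -0.19 without scaling. Myrf, the transcription factor of myelination, reached 1.26 and Cnp 0.58, while the myelin genes Mobp, Mbp and Mog fell by 0.91, 0.45 and 0.23. Mbp averaged 188 ± 50.2 FPKM in IP and 294 ± 24.1 FPKM in input (SD, n = 24 each). The list's median in a mouse ran from -1.05 to 0.69. Of 11 precursor markers, 8 were higher and 2 lower, with a median of 0.29, but without scaling 4 were higher and 3 lower, with a median of 0.05. Cspg4, Tnr and Pdgfra reached 0.86, 0.53 and 0.49, while Bmp4 and Enpp6, which mark committed precursors, fell by 0.80 and 0.28. Of 10 markers of subventricular progenitors and neuroblasts that passed in both, 5 were higher and 4 lower, with a median of 0.27. Egfr reached 2.74 and Cd24a 0.90, while the division gene Top2a fell by 1.56.

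**Figure D2:**
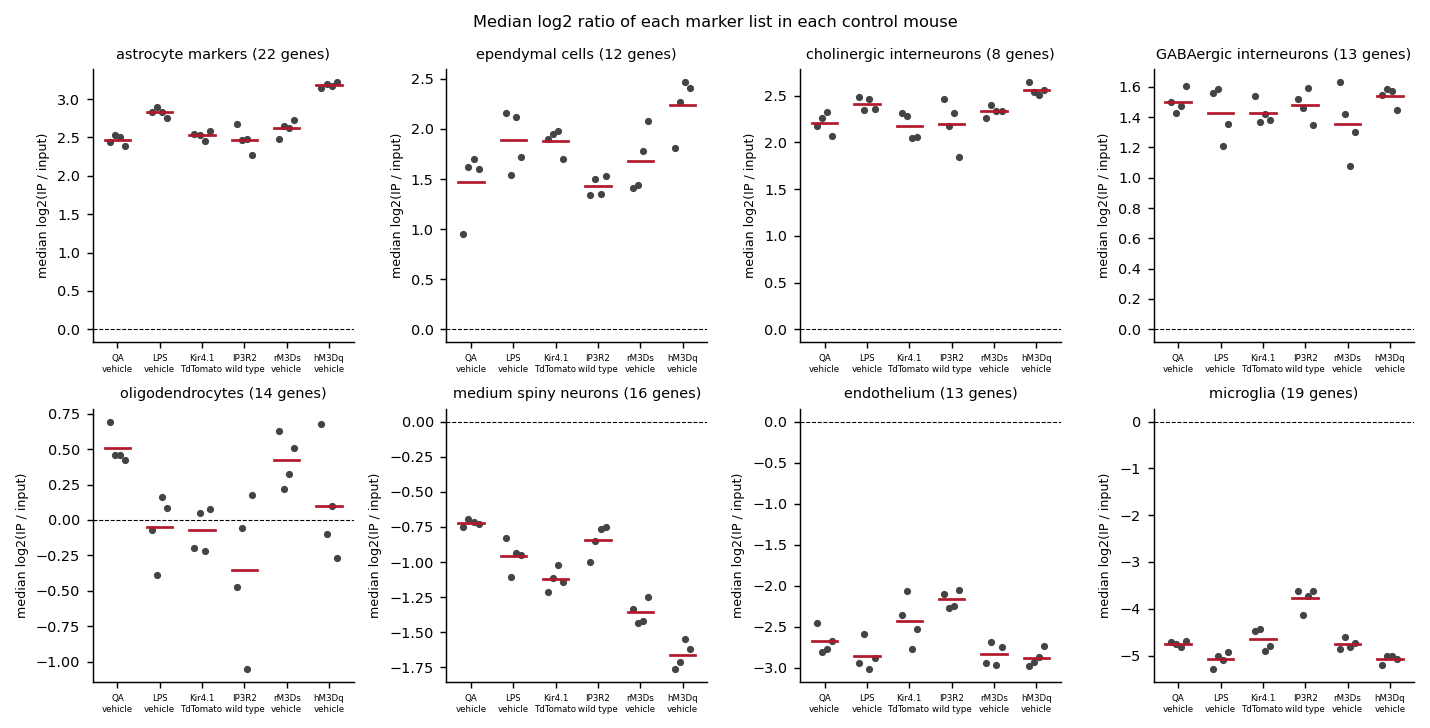
Median log2 ratio of IP over input (vertical) of 8 marker lists in each control mouse (points), by control group (horizontal); red bars are group means and the dashed line marks 0. Each of the 24 mice lies above 0 for astrocyte, ependymal and both interneuron lists. Each lies below 0 for medium spiny neuron, endothelial and microglial lists, and the oligodendrocyte list lies on both sides. Medians are over all tested members. Of these, 5 endothelial markers and 1 microglial marker passed the filter in input only, and 3 ependymal markers in IP only.

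The classes of RNA that are not translated were lower in IP. The largest loss in the data was that of Rmrp, the RNA of a nuclear and mitochondrial ribonuclease. Rmrp had 9.33, 21.4 and 43.2 FPKM in IP as the lowest, median and highest of 24 mice, against 1086, 2881 and 7364 FPKM in input, and fell by 6.94 ± 0.09 (SE, limma adjusted p = 1.7e-28), a 123-fold difference. Input values varied widely among mice, but the fractions did not overlap. All 12 tested long noncoding RNAs listed as nuclear were lower, with a median log2 ratio of -2.32. Xist, a gene of the inactive X chromosome, was among these 12 and was under 1 FPKM in both fractions in 14 of the 24 mice. Meg3, an imprinted RNA, had 5.17, 8.95 and 18.2 FPKM in IP as the lowest, median and highest values, against 62.0, 86.9 and 127 FPKM in input. Mirg, Snhg11 and Rian fell by 2.84, 2.72 and 2.71. Counts by RefSeq class are over all tested genes and were not limited to those that passed the filter in both fractions. A gene that passed in 1 fraction only has a tilted ratio, and such genes were not counted by class. In the long noncoding class, 450 of 637 genes were lower and 96 higher, with a median of -0.74. Among 14149 protein-coding genes, 5931 were lower and 6738 higher, with a median of 0.04. That excess of higher protein-coding genes turned under other scalings, to 6224 higher and 6481 lower with RLE and to 4789 higher and 8022 lower without scaling. Of 11 snoRNA hosts that make no protein, 9 were lower and 1 higher, with a median of -1.20, and with Snhg8 at -2.52, Snhg6 at -1.99, Gas5 at -1.65, Snhg12 at -1.47 and Snhg18 as the exception at 0.77.

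Of 74 snoRNA and scaRNA genes that passed the filter in both fractions, 67 were lower and 0 higher, with a median log2 ratio of -2.14, and 24 others passed in input only. Snora74a fell by 5.23, Scarna6 by 4.41, Snord17 by 4.32 and Scarna10 by 3.98. Of 241 microRNA genes that passed in both, 178 were lower and 7 higher, with a median of -1.56, while 220 others passed in input only. Over all tested microRNA genes the median in a mouse was 0 in 8 of 24 mice. Mir6516, Mir1894 and Mir186 fell by 4.11, 3.98 and 3.66. These libraries do not measure mature microRNAs, and fragments of a host transcript cannot be told apart from those of a small RNA gene within it. Of 53 histone genes of the replication type that passed in both, 46 were lower and 4 higher, with a median of -1.06. Hist1h3c, Hist1h3b, Hist1h2af and Hist1h2bm fell by 2.85, 2.51, 2.25 and 2.14. These mRNAs have no poly(A) tail, and copies of the family are alike, so single values are uncertain. The labels name both a ribosomal RNA removal kit and polyA RNA. The list of mitochondrially encoded genes matched 0 entries and has no value here.

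**Figure D3:**
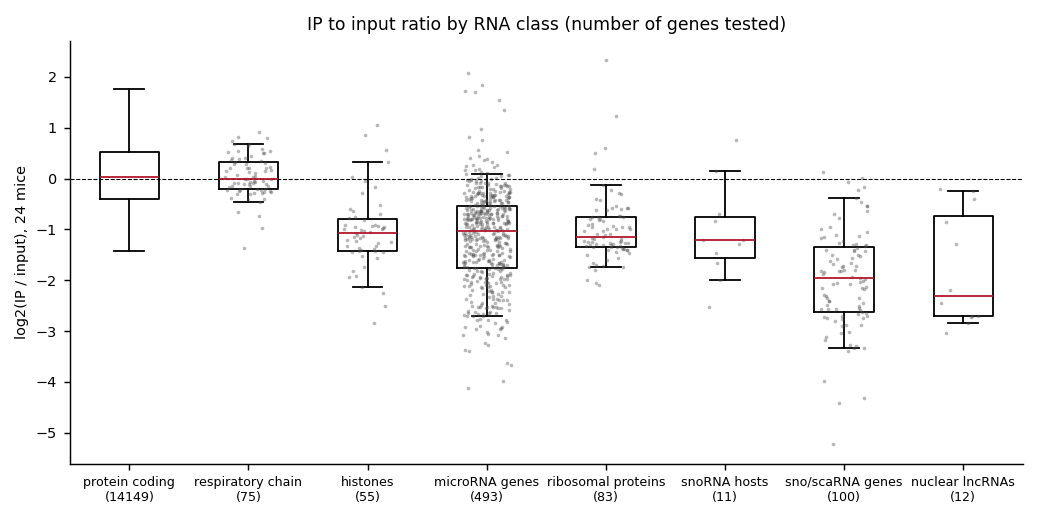
Log2 ratio of IP over input (vertical) by RNA class, with the number of genes tested in parentheses; boxes show the quartiles and median, whiskers the 5th and 95th percentiles, and points single genes (none drawn for protein-coding genes). Protein-coding and respiratory chain genes centre near 0, and every other class shown centres between -1.03 and -2.32. All tested genes are included. Of 493 microRNA genes, 220 passed the filter in input only. So did 24 of 100 snoRNA and scaRNA genes and 2 of 55 histone genes.

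Genes of the protein-making machinery were also lower. Of 83 tested cytosolic ribosomal protein genes, 78 were lower in IP and 5 higher, with a median log2 ratio of -1.16. Rps12 and Rplp1 fell by 2.09 and 2.05. Rplp1 averaged 147 ± 26.2 FPKM in IP and 740 ± 211 FPKM in input (SD, n = 24 each). Rpl22 went the other way, at 2.33, the highest of the list, and the vector carries a tagged copy of this gene, whose reads the gene level cannot tell apart from those of the mouse's own. Its paralog Rpl22l1 fell by 1.99. Of 75 nuclear-encoded respiratory chain genes, 33 were higher and 31 lower, with a median of -0.24 without scaling and near 0 with it. The succinate dehydrogenase subunits Sdha and Sdhc reached 0.91 and 0.82, while Atp5g2 and Atp5l fell by 1.37 and 0.98. The ratio of Atp5g2 ran from -2.27 to -0.07 over the 6 groups, and its level differed by library code.

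**Figure D4:**
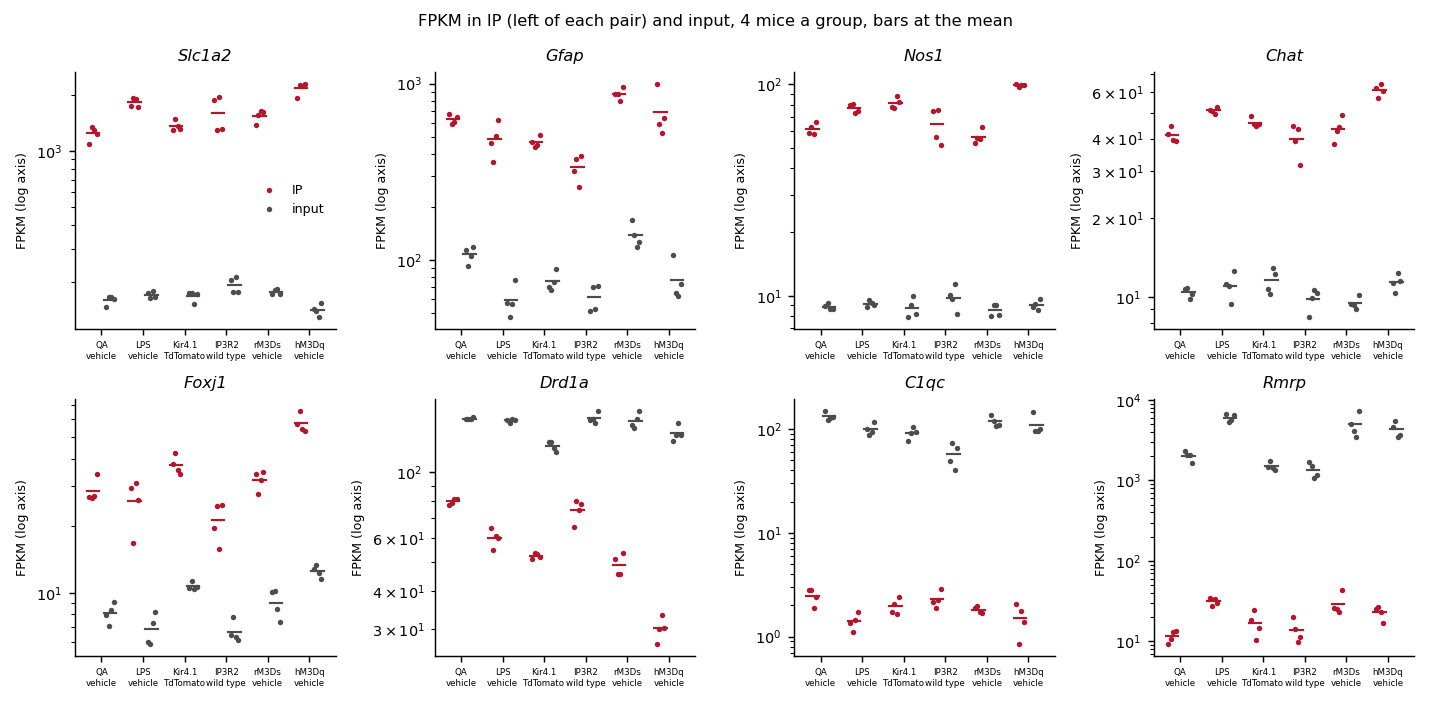
FPKM (log axis) of 8 genes in each control mouse, by control group (horizontal), with IP left of input in each group and bars at the group mean. IP lies above input in every group for Slc1a2, Gfap, Nos1, Chat and Foxj1, and below it for Drd1a, C1qc and Rmrp.

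The ratio was then taken in each of the 6 groups, to see whether enrichment was alike in animals that differ in genotype, vector and library code. Higher genes numbered 6076 in the QA group (39.0% of those tested), 6299 in the LPS group (40.5%), 6129 in the Kir4.1 group (39.4%), 5834 in the IP3R2 group (37.5%), 6391 in the rM3Ds group (41.1%) and 6301 in the hM3Dq group (40.5%). Lower genes numbered 5594 (35.9%), 5679 (36.5%), 5785 (37.2%), 5828 (37.4%), 5725 (36.8%) and 6267 (40.3%) in the same order of groups. Without scaling, the higher genes of the LPS group numbered 4199. In each of the 6 groups, 4774 genes were higher (30.7%) and 4112 lower (26.4%), and at least 4-fold differences in each of the 6 were found for 223 higher (1.43%) and 271 lower genes (1.74%). Another 633 genes (4.07%) were higher in at least 1 group and lower in at least 1 other. Across all 15566 genes, Pearson's r between the ratios of 2 groups ran from 0.90 to 0.94 over the 15 pairs. Genes are not independent replicates, so this r is a description.

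The size of the ratio differed between groups for 8406 genes (54.0%, moderated F test of limma, adjusted p under 0.05), and for 1028 genes (6.60%) the groups also spanned at least 1 on the log2 scale. The hM3Dq group set the highest or lowest of the 6 ratios in 5826 of the 8406 genes, against 1572 to 2792 for each of the other groups. Without the hM3Dq group, 5561 genes differed, and within the 4 groups whose library codes start with 2018, 3637 did. The 22 astrocyte markers had a group median log2 ratio of 3.17 in the hM3Dq group, 2.83 in LPS, 2.61 in rM3Ds, 2.55 in Kir4.1, 2.46 in IP3R2 and 2.45 in QA, and all 22 were called higher in each group. The 4 hM3Dq mice lay between 3.14 and 3.23, above all other mice, which lay between 2.27 and 2.89. The 4 LPS mice came next, between 2.75 and 2.89, above every mouse of the groups with 2018 codes, which lay between 2.27 and 2.73. LPS and hM3Dq are the groups whose codes do not start with 2018, so this order also follows library code. The part of library code in it was not tested. The 16 shared medium spiny neuron markers had their lowest median in the hM3Dq group too, at -1.67, then -1.37 in rM3Ds, -1.12 in Kir4.1, -0.94 in LPS, -0.83 in IP3R2 and -0.73 in QA, and all 16 were called lower in each group. Drd1a averaged 30.1 ± 2.75 FPKM in hM3Dq IP libraries and 135 ± 7.53 FPKM in hM3Dq input libraries, but 79.8 ± 1.95 FPKM in QA IP libraries and 151 ± 1.21 FPKM in QA input libraries (SD, n = 4 each). The means of these 2 groups were further apart in IP than in input. Cholinergic interneuron markers also had their highest median in hM3Dq, at 2.55. LPS followed at 2.42 and rM3Ds at 2.34, with 2.17 to 2.21 in the other groups. Ependymal markers, over all 12 tested, 3 of which passed the filter in IP only, had 2.31 in hM3Dq against 1.42 to 1.85 elsewhere. GABAergic interneuron markers did not follow this order, with group medians from 1.39 in Kir4.1 to 1.58 in QA and 1.55 in hM3Dq.

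Microglial markers had the weakest loss in the IP3R2 group, with a median log2 ratio of -3.78 against -4.67 to -5.27 in the other groups. Endothelial markers had -2.21 there against -2.27 to -2.91. These medians are over all tested markers, of which 1 of 19 microglial and 5 of 13 endothelial passed the filter in input only. For C1qc the group means were further apart in input than in IP. The IP3R2 group averaged 2.3 ± 0.427 FPKM in IP and 57.6 ± 15.5 FPKM in input, while the QA group averaged 2.47 ± 0.443 FPKM in IP and 134 ± 12.1 FPKM in input (SD, n = 4 each). The oligodendrocyte list had group medians from -0.38 in IP3R2 to 0.52 in QA. Within the IP3R2 group its 4 mice ran from -1.05 to 0.17, a wider range than that of the group medians.

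**Figure D5:**
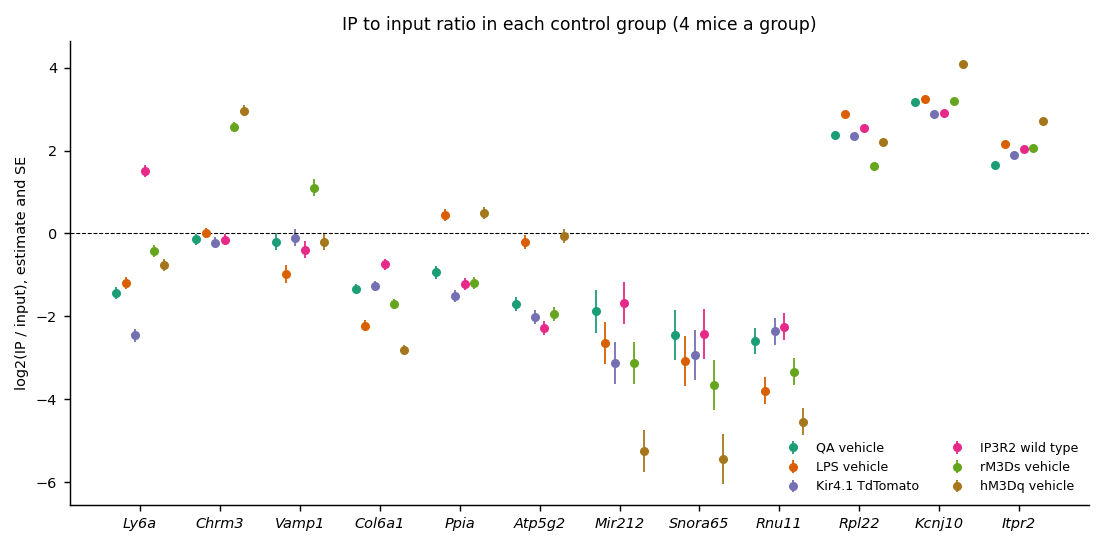
Log2 ratio of IP over input (vertical) for 12 genes in each control group (colours), 4 mice a group. Points are estimates and bars are standard errors. The errors rest on a spread shared over the groups, so they do not show the spread within a group. Ly6a is above 0 in the IP3R2 group and below 0 in the other 5, Chrm3 is above 2 in the rM3Ds and hM3Dq groups and near 0 in the other 4, and Ppia is above 0 in the LPS and hM3Dq groups only.

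Chrm3, the mouse gene of the muscarinic M3 receptor, the receptor type from which both designer receptors derive, was high where a receptor vector was given. It averaged 214 ± 25.5 FPKM in IP and 43.3 ± 9.1 FPKM in input of the rM3Ds group, and 91.8 ± 16.6 FPKM in IP and 14.1 ± 1.47 FPKM in input of the hM3Dq group (SD, n = 4 each). In the other groups it averaged 3.39 to 4.02 FPKM in IP and 4.56 to 5.08 FPKM in input. Its log2 ratio was 2.56 ± 0.13 in rM3Ds and 2.96 ± 0.13 in hM3Dq (SE), against -0.22 to 0.01 in the other 4 groups, none of them called. Mouse and vector sequences are not told apart in these values. How fully reads of each vector count toward the mouse gene was not tested, so the levels of the rM3Ds and hM3Dq groups are not comparable. Over all 24 mice its ratio was 0.84.

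Rpl22 also differed between groups. It averaged 994 ± 131 FPKM in IP of the LPS group and 163 ± 28.2 FPKM in its input, but 183 ± 19.1 FPKM in IP of the hM3Dq group and 48.1 ± 2.26 FPKM in its input (SD, n = 4 each). The log2 ratio ran from 1.63 in rM3Ds to 2.89 in LPS (limma F test adjusted p = 8.2e-08). The hM3Dq group, which had the highest astrocyte marker ratio, had the lowest mean Rpl22 level of the 6 in both fractions. Kcnj10 averaged 201 ± 24.5 FPKM in IP and 31.0 ± 4.29 FPKM in input of the IP3R2 group and 150 ± 10.1 FPKM in IP and 23.4 ± 2.24 FPKM in input of the Kir4.1 group, above the 81.4 to 132 FPKM in IP and 9.43 to 12.5 FPKM in input of the other group means. Its log2 ratio was 4.08 in hM3Dq and 2.88 to 3.24 in the other groups. Itpr2 had a ratio of 2.03 in the Itpr2+/+ mice, inside the range of 1.65 to 2.70 of the other groups.

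The gene with the widest span was Ly6a, which encodes the surface protein Sca-1. It averaged 34.2 ± 10.5 FPKM in IP and 14.1 ± 4.5 FPKM in input of the IP3R2 group, but 2.04 ± 0.907 FPKM in IP and 12.9 ± 3.1 FPKM in input of the Kir4.1 group (SD, n = 4 each). The log2 ratio was 1.5 ± 0.15 in IP3R2 and -2.46 ± 0.15 in Kir4.1 (SE), and was called in each of the 6 groups, lower in 5 (limma F test adjusted p = 2.1e-10). Vamp1, a synaptic vesicle protein, was higher in rM3Ds only, at 1.11 ± 0.21, and lower in LPS only, at -0.98 ± 0.21. Col6a1, a matrix collagen, was lower in each group, from -0.75 in IP3R2 to -2.81 in hM3Dq. The small RNA genes Mir212, Snora65, Snora81, Snord64 and Rnu11 were lower in each group and had their lowest ratio in hM3Dq, from -5.43 for Snora65 to -3.26 for Snord64. Mir6516 had its lowest ratio in rM3Ds, at -5.09. Mir212 and Snora65 were listed at 0 in some IP libraries, so their ratios depend on the pseudocount.

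Some genes differed in level between groups by library code. Of the 15566 tested genes, 298 (1.91%) had mean input levels at least 4-fold apart between the LPS and hM3Dq groups, whose codes start with 2016, and the other 4, whose codes start with 2018. Of these, 251 were higher with 2016 codes, and 188 of the 298 were also at least 4-fold apart the same way in IP. This count rests on input levels and does not show differences in ratio. Among the 298 were 0 of the 22 astrocyte markers. Their median log2 ratio in a mouse still lay between 2.75 and 3.23 with 2016 codes and between 2.27 and 2.73 with 2018 codes. Gapdh, a glycolytic enzyme often taken as a constant gene, averaged 635 ± 24.2 FPKM in IP and 415 ± 13.4 FPKM in input of the 2016 groups (SD, n = 8 each), and 1.75 ± 0.399 FPKM in IP and 3.59 ± 0.563 FPKM in input of the 2018 groups (SD, n = 16 each). Its log2 ratio was 0.87 in LPS and 0.91 in hM3Dq, and between -0.87 and -0.65 in the other groups. Gapdh and Ppia have many near-identical pseudogene copies, so their values are uncertain, and the part of read counting in this difference was not tested. Ppia, a cyclophilin, averaged 486 ± 54.2 FPKM in IP and 427 ± 54.4 FPKM in input with 2016 codes, against 1.43 ± 0.329 FPKM in IP and 3.98 ± 0.688 FPKM in input with 2018 codes. Atp5g2, a subunit of ATP synthase, averaged 21.0 ± 1.28 FPKM in IP and 27.9 ± 2.05 FPKM in input with 2016 codes. With 2018 codes it averaged 0.635 ± 0.247 FPKM in IP and 3.11 ± 0.406 FPKM in input. Among ribosomal protein genes, 44 of 83 were at least 4-fold apart. The median log2 ratio of these 44 was -1.22 and that of the other 39 was -1.10. Dropping the 298 genes after the fit, with p adjusted again over the rest, left 6866 higher and 6738 lower over all mice. The fit itself was not repeated without them.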

How the data were processed

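RNA was extracted from the IP and input of 24 control mice, and strand-specific libraries were made, per the labels' protocols; these name a ribosomal RNA removal kit, while the molecule label says polyA RNA. The authors deposited FPKM per gene, 1 table per library; STAR, HTSeq and mm10 are named in the submitters' processing notes, with no versions, and the treatment of reads with several matches is not given in the sources used here. Library totals were recovered from the FPKM steps: 99.79% of 842863 values above 0 were whole reads within 0.001 reads, with a lowest depth of 43826591 reads among IP libraries and 14738821 among input libraries. The FPKM values, not these reads, entered the main test, and the precision of each value is given by its spread over mice. Genes of at least 0.5 FPKM in at least 4 libraries were tested (15566 of 24060 entries) on log2(TMM-scaled FPKM + 0.1), TMM trimming 30% of ratios and 5% of levels, with limma 3.58.1 (R 4.3.3, trended prior), the mouse as a block and Benjamini-Hochberg adjustment over all tested genes. Group ratios, their standard errors and the moderated F test came from a model with fraction by group terms and a spread shared over the groups. The fits were tested on simulated data. Counts of list members that passed the filter in both fractions were added after the values were seen.

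IP and input of a mouse are paired by the animal codes in the labels; deviations of an IP library from its group mean correlated best with those of its own input in 21 of 24 mice (median r of 0.0944). Xist, a gene of the inactive X chromosome, was on the same side of 1 FPKM in IP and input in all 24 mice. It was over 1 FPKM in both fractions in 10 mice and under 1 FPKM in both in 14. How these mice fall over the 6 groups was not analysed. Of the entries, 22600 matched a RefSeq symbol (GRCm38.p6) and 1300 a synonym; promoter windows are RefSeq's.

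Members and gene lists were chosen with earlier results of these data known. Named genes are the 15 largest ratios each way (24 of 24 mice, mean of at least 10 FPKM in the higher fraction), up to 4 called members of each list and called members against its direction where there were 3 or fewer, the 12 widest group spreads among genes of at least 10 FPKM, the 10 most abundant in IP, and Rpl22, Rpl22l1, Chrm3, Kcnj10 and Itpr2. Gapdh, S100b, Slc4a4, Got2, Gbx1, Pvalb, Calb2, Grm5, P2ry1, Adrb1, Adora1, Pifo, Hydin, Dynlrb2 and Ccdc153 fall outside the rule and were chosen after their values or windows were seen. Alternatives covered scaling, pseudocount, filter, block, voom on recovered reads, and leaving out each mouse or each group. The genes that differ by library code were dropped after the main fit, with p adjusted again. Some genes that the rule names are not reported here.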

Additional observations from a re-analysis of the deposited data

Results flagged for a closer look

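Of the sets of 4 mice examined, for 36 list medians and 16 genes in each of 6 groups, 10 held 1 mouse far from the other 3 by Dixon's criterion, and chance flags about 1 in 20. These 10 flags are fewer than that rate would give over all the sets examined, so none is shown to be more than chance. Red blood cells, with 1 gene tested, and microRNA genes, with medians of 0 in 8 mice, were not among the 36 lists. The red blood cell gene stood at -4.09 in Kir4.1 replicate 4 against -2.96 to -2.92 in the other mice of that group. The microRNA median was -1.51 in rM3Ds replicate 4 and -0.71 in hM3Dq replicate 4, against 0 in the other mice of each group. All values are log2 ratios of IP over input. In the QA group, replicate 1 had an ependymal median of 0.9479 against 1.6044 to 1.7036 in the other 3 mice, and an oligodendrocyte median of 0.6934 against 0.4201 to 0.4615. Replicate 3 of that group had a pan-neuronal median of 0.1874 against 0.1644 to 0.168, and replicate 4 a choroid plexus median of -0.448 against -0.798 to -0.7873. Rpl22 stood at 2.6848 in QA replicate 2 against 2.2377 to 2.3132, and Rpl22l1 at -1.9416 in QA replicate 4 against -1.7131 to -1.6661. The mural cell median was -1.2825 in IP3R2 replicate 3 against -0.9157 to -0.8954. The lipid gene median was 2.4928 in hM3Dq replicate 4 against 2.3266 to 2.3431. The median of synapse-forming and matrix genes was 1.8912 in LPS replicate 1 against 1.7816 to 1.7889, and 1.6722 in rM3Ds replicate 1 against 1.8938 to 1.903.

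The ratio differed between the 6 control groups for 154 of 194 named genes by limma's moderated F test. Over all tested genes the same test called 8406 of 15566 (54.0%). Some of the named genes were chosen for a wide spread between groups, so their count is partly set by that choice. The 16 given here, with adjusted p from 4.16e-12 to 0.0358, are those chosen for the widest spread between groups or because a vector or genotype bears on them. The difference between the highest and lowest group was 3.9594 for Ly6a, 3.1815 for Chrm3, 2.0837 for Vamp1 and 2.0582 for Col6a1. Among small RNA genes it was 3.5605 for Mir212, 3.0134 for Snora65, 2.3646 for Snora81, 2.338 for Snord64, 2.2885 for Rnu11 and 2.0248 for Mir6516. It was 2.2048 for Atp5g2 and 1.999 for Ppia, both of which also differed by library code in level. For the genes that the vectors or genotypes bear on, it was 1.2621 for Rpl22, 1.196 for Kcnj10, 1.1115 for Rpl22l1 and 1.0582 for Itpr2. The part of genotype, vector and library code in these differences cannot be told apart.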

How the results depend on the processing

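The count of genes whose ratio differed between groups was 8406 and fell to 5561 without the hM3Dq group and to 3637 within the 4 groups with 2018 codes, a setting chosen after seeing the data; both fits hold fewer mice. Without scaling, genes higher in the LPS group numbered 4199, and 816 of the genes higher over all mice became lower, with 35.12% of called genes higher against 50.03% with TMM. RLE scaling gave 6373 higher and 7458 lower. Without the mouse term, that is with no replicate block, 6409 were higher and 6288 lower. Voom on recovered reads gave 6852 higher and 7101 lower. Named genes that changed sign were Btg2 (-0.1231), Col1a2 (-0.0419) and Sfxn1 (-0.1462) without scaling, Ppia (0.2076) with voom and Vamp1 (0.0385) without the LPS group; the cause was not tested. Leaving out each mouse gave 13680 to 13745 called genes, 6802 to 7001 higher and 6721 to 6901 lower, 7825 to 8681 by the F test, and 70974 to 71803 calls summed over the groups. Median depth was lower in input than in IP, which limits genes near 0 there.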
